A study of Homo sapiens with 12 samples.

Results

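In MHCC97H, a cell line grown from a human hepatocellular carcinoma, cells that carried a vector for the microRNA miR-628-3p (named pGreen-628 in the labels) were set against cells that carried the empty vector. The comparison took the 12670 genes, of 60664 in the deposited table, whose mean over the 6 MHCC97H libraries was at least 1 FPKM, the fragments counted on a gene scaled for its exon length and for the depth of the library. The whole series holds 12 libraries, and 6 of them, 3 per group, are compared here.

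The study measured poly-A RNA by sequencing in 2 lines given miR-628-3p in different ways. MHCC97H received a vector and Huh7, another line of hepatocellular carcinoma, a mimic, a short RNA duplex made to stand in for the microRNA. The pGreen-628 cells have the genotype label miR-628-3p overexpression and no treatment, and the vector cells have the genotype label WT and no treatment. Both were grown in the same medium with fetal bovine serum. The promoter of the vector, and whether each set of cells was a single clone or a pool, are not given in the sources used here.

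A microRNA is a short RNA that guides an Argonaute protein to messenger RNAs. Pairing of its seed, the bases near its 5′ end, with a site in the 3′ untranslated region usually lowers the stability or the translation of that messenger. MiR-628-3p is cut from a hairpin encoded inside an intron of CCPG1, whose protein marks stretches of the endoplasmic reticulum for breakdown by autophagy.

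The mature sequences are shown because the seed decides which sites can be searched in the measured transcripts. The seed, bases 2 to 8, is in capitals in both arms, and the arms are in capitals in the hairpin. The sequences are from RefSeq on GRCh38.p14, where the hairpin lies on the minus strand at chr15:55372940-55373034.
hsa-miR-628-3p: uCUAGUAAgaguggcagucga
hsa-miR-628-5p: aUGCUGACauauuuacuagagg
MIR628 hairpin: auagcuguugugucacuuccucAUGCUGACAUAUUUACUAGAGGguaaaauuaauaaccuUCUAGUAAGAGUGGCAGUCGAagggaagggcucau
The seeds of both arms differ, so the sites of each are searched apart.

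The targeted gene comes first. MIR628 (ENSG00000283891), annotated over the 95 bases of that hairpin, was counted at 0 reads throughout the 6 libraries, and a count of 0 allows up to 3 reads in a library. Poly-A libraries do not hold mature microRNAs, so the table does not show whether pGreen-628 raised miR-628-3p. The host gene CCPG1 was at 11.99, 8.59 and 14.95 FPKM in the pGreen-628 libraries, against 17.5, 15.02 and 17.2 FPKM in the vector libraries. The highest pGreen-628 library lay just under the lowest vector library, and the gene was not called (-0.48 on the log2 scale, adjusted p = 0.155). CCPG1 was called lower in 3 of 19 alternatives, after the GC and length correction with and without a replicate block (-0.39, adjusted p = 0.0156 and 0.0277) and without pGreen-628 library 3 (-0.65, adjusted p = 0.0258), and the adjusted p reached 0.394 in the others.

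The libraries held 16554131 to 19234797 reads with pGreen-628 and 17086632 to 18255535 with the vector. The pGreen-628 libraries lay further from each other than the vector libraries did. Across genes, the chi-square per degree of freedom was 40.0 between pGreen-628 libraries 2 and 3, against 2.06 to 3.89 between vector libraries. The difference between those 2 pGreen-628 libraries tracked the GC content of the transcript (Spearman rho 0.715 across genes). Vector libraries differed with GC content too, with rho -0.499 between libraries 1 and 2, -0.138 between 1 and 3 and 0.426 between 2 and 3. The other pGreen-628 pairs had -0.578 (1 and 2) and 0.590 (1 and 3). Some defining markers of the lineage were expressed in both groups, with the keratin KRT8 at 1189 to 1580 FPKM with pGreen-628 and 1304 to 1400 with the vector, and 7.82, 7.87 and 6.92 against 6.47, 6.64 and 6.57 FPKM for the liver transcription factor HNF4A. Others differed, with ALB and APOH called higher and FGB lower with pGreen-628. The apolipoproteins APOA1 and APOA2 stayed under 1 FPKM in every library. The 16 hepatocyte-lineage markers summed to 1982 to 2564 FPKM with pGreen-628 and 2157 to 2278 with the vector, most of it keratin. Among markers of other cells, those of fibroblasts summed to 2.69 to 3.44 against 2.01 to 2.57 FPKM with PDGFRA at 0, those of leukocytes to 3.20 to 3.31 against 2.45 to 3.14 with CD3E and MS4A1 at 0, and those of endothelial cells to 9.03 to 9.54 against 5.86 to 6.67 with CLDN5, EMCN and STAB2 at 0.

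Most transcripts differed little between the groups, and a small set moved in both directions. A gene was called where limma on log2(FPKM + 1) gave a Benjamini-Hochberg adjusted p under 0.05 over all 12670 genes. A bare number in parentheses after a gene or its FPKM values, and the amount by which a gene is said to have risen or fallen, is a log2 fold change of pGreen-628 over vector on that scale. In all 680 genes were called, 5.37% of those tested. Of these, 294 were higher with pGreen-628 (2.32%) and 386 lower (3.05%). Those shares over all tested genes are the background for each count of list members given below. The median log2 fold change was -0.04 over all tested genes, 0.45 over those called higher and -0.48 over those called lower. A change of 2-fold or more was seen in 21 genes called higher and 20 called lower. Called or not, the pGreen-628 values all lay above the vector values in 1548 genes (12.2%) and all below them in 2247 (17.7%).

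The split by direction moved with the scaling of the libraries. Higher genes made up 349 of 637 calls after median rescaling and 417 of 741 after quantile normalization, against 294 of 680 without either. The total also depended on single libraries. It was 166 without pGreen-628 library 1, 1607 without library 3, and 146, 187 and 143 without vector libraries 1, 2 and 3. All 680 genes kept their direction in each of these fits. Leaving out a library could not turn a sign, because the groups did not overlap in any of the 680. In bulk RNA, a change in the share of cells that express a gene and a change in the RNA per cell cannot be told apart. The labels do not say that the libraries came from separate cultures, so the p-values measure only the spread between these libraries.

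**Figure D1:**
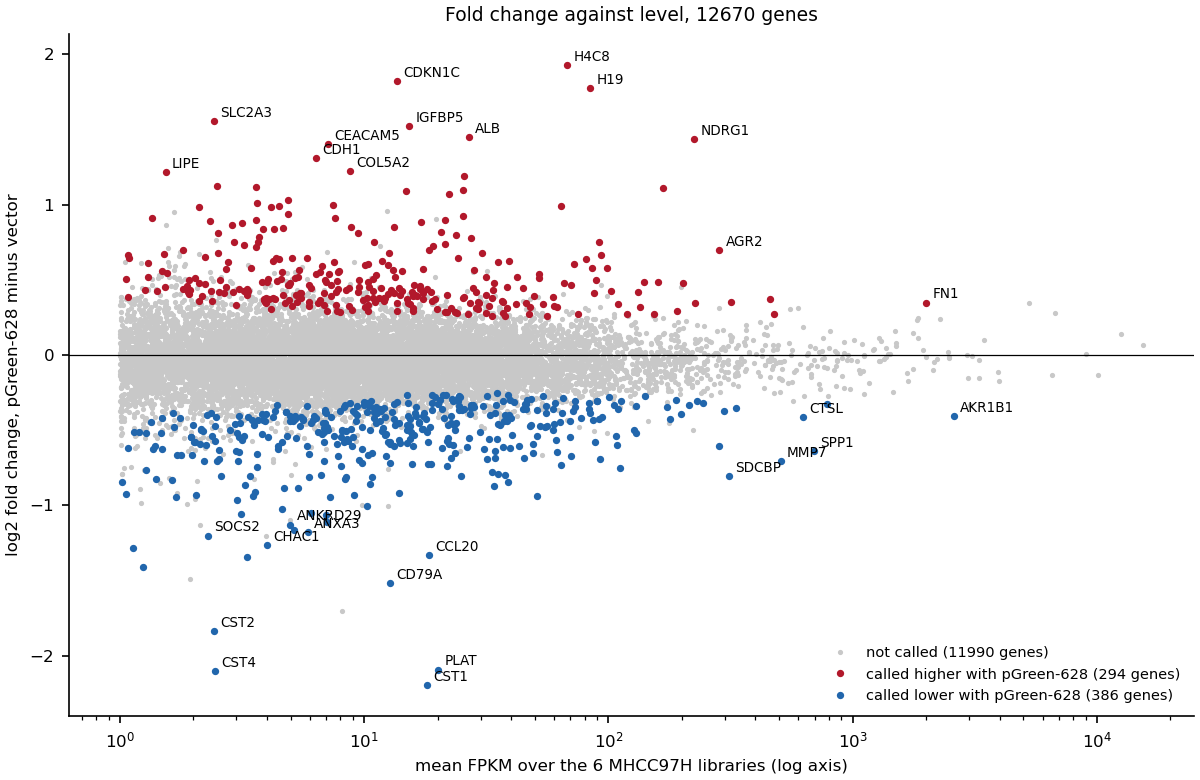
Log2 fold change of pGreen-628 over vector (vertical axis) against the mean FPKM over the 6 libraries (horizontal log axis) for 12670 genes, 1 point per gene. Genes called higher (294) and lower (386) lie at all levels, with CST1, CST4 and PLAT at the low end near -2 and H4C8, CDKN1C and H19 at the high end.

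**Figure D2:**
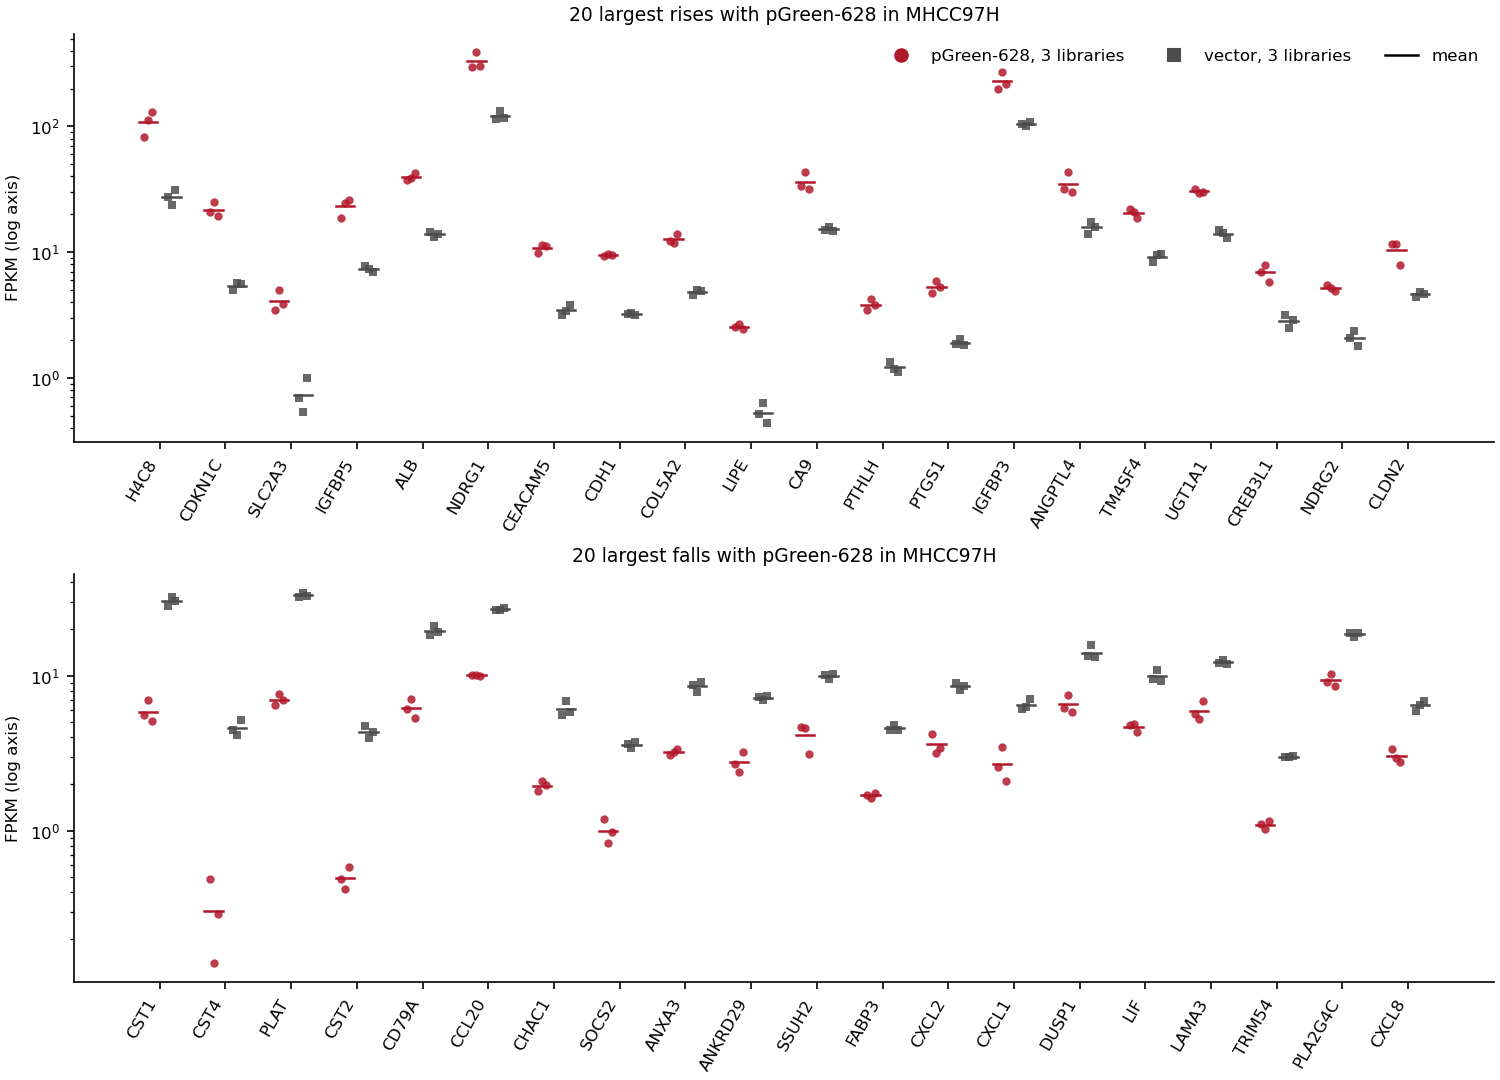
FPKM in each library on a log axis for the 20 largest rises (above) and the 20 largest falls (below) among called protein-coding genes, with pGreen-628 as circles left of the vector as squares and a bar at each mean. The genes were chosen among those with groups that do not overlap, so in each the 3 circles lie on one side of the 3 squares.

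A messenger that pairs with the seed of miR-628-3p carries a matching site. Of 10792 tested genes with a 3′ untranslated region in GENCODE, 881 held TTACTAG, the match to bases 2 to 8 of miR-628-3p. Among them 14 were called lower (1.59%) and 19 higher (2.16%), against 316 lower (3.19%) and 262 higher (2.64%) among the 9911 without the site. The median log2 fold change was -0.04 in both. Where the untranslated region was at least 1000 bases long, 1.69% of 827 genes with the site and 2.40% of 6464 without it were called lower. The longer match TTACTAGA was in 308 genes, of which 8 were called lower (2.60%) and 7 higher. Of 93 genes with at least 2 sites, 0 were called by limma, 12 had an unadjusted p under 0.05 (12.9%, against 22.2% of all tested genes) and 1 was called by voom. The site GTCAGCA of the other arm was in 1398 genes, 33 of them called lower (2.36%) and 37 higher. These shares are descriptions, and the genes with a site had longer untranslated regions (median 3481 against 1512 bases).

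Of the 14 genes with a site that were called lower, those with the largest falls are shown with that site, in capitals, and its flanks. The 19 genes with a site that were called higher are not shown. Among them were LOX (0.90), LRP1 (0.80), HILPDA (0.74) and AGR2 (0.70).
PMAIP1: gttcctgttgggcgTTACTAGaaactatg
ZG16B: acaataaaaatgaaTTACTAGaaaagcaa
METAP2: ttggattcttaacaTTACTAGtggtattt
IDI1: ctactgttgtaataTTACTAGgatgccat
RCN1: tttttttcatccaaTTACTAGaatgttca
RDH11: tgttactgccagagTTACTAGagatatca
In PMAIP1, ZG16B, RCN1 and RDH11 an A follows the capitals, which makes the longer match. PMAIP1, a pro-apoptotic protein of the BCL2 family, was at 18.1, 15.7 and 20.4 FPKM with pGreen-628, against 32.6, 30.5 and 33.1 FPKM with the vector (log2 fold change -0.80, adjusted p = 0.00518). The secreted lectin ZG16B was at 14.4, 16.4 and 11.2 against 23.03, 24.3 and 23.2 FPKM. METAP2, which removes the first methionine from new proteins, was at 34.3, 30.4 and 38.5 against 56.8, 53.6 and 56.6 FPKM. No pGreen-628 library reached the lowest vector library in any of these genes. IDI1, an isomerase of isoprenoid synthesis, RCN1, a calcium-binding protein of the endoplasmic reticulum, and RDH11, a retinol dehydrogenase, fell by 0.60, 0.47 and 0.46 on the log2 scale, and MTHFD2L, MCTP1, PTPN2 and EXOC2 by 0.41, 0.39, 0.36 and 0.35. PMAIP1 stayed called in each of the 19 alternatives to the fit.

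Some genes of cell adhesion and epithelial junctions rose, and a few adhesion genes fell. CDH1, which encodes E-cadherin, the adhesion protein of epithelial cells, was at 9.24, 9.59 and 9.52 FPKM in the pGreen-628 libraries, against 3.21, 3.30 and 3.15 FPKM in the vector libraries. Values within each group were tight and the groups lay far apart (log2 fold change 1.31, SE 0.0652, adjusted p = 0.000185). CEACAM5, a glycoprotein of the cell surface known as a tumour marker, was at 9.80, 11.4 and 11.2 against 3.18, 3.39 and 3.80 FPKM (1.40, adjusted p = 0.000627). CLDN2, a claudin that forms pores in tight junctions, was at 11.5, 11.7 and 7.85 against 4.37, 4.81 and 4.62 FPKM, with pGreen-628 library 3 the lowest of its group. CLDN7, another claudin, was at 22.5, 24.98 and 20.3 against 12.4, 11.8 and 11.1 FPKM. All 4 genes were higher in every pGreen-628 library than in any vector library.

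Of 21 tested tight junction and epithelial genes 6 rose and 0 fell, with a median log2 fold change of 0.23. Beside CEACAM5, CLDN2 and CLDN7 these were the mucin MUC1 (0.73), the adhesion molecule CEACAM1 (0.45) and the junction adaptor CGN (0.37), and the other 15 were not called. They include OCLN, F11R, TJP3 and ESRP2, between 0.23 and 0.31, and CLDN12, CLDN15 and SPINT2, the 3 members below 0, at -0.32, -0.21 and -0.06. The count was 3 without pGreen-628 library 1 and 2, 3 and 2 without vector libraries 1, 2 and 3. CDH17, a cadherin of the gut, also rose, at 119, 108 and 131 FPKM with pGreen-628 and 79.8, 78.7 and 78.7 with the vector (0.58), and N-cadherin (CDH2) had a log2 fold change of 0.18 that was not called. MPZL2, an adhesion molecule of epithelia, and COL17A1, a collagen that spans the membrane at hemidesmosomes, rose by 0.91 and 0.89.

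The list of mesenchymal genes did not move as a block. Of 16 tested, 5 rose and 2 fell, with a median of 0.16. LOX, which cross-links collagen, was at 4.47, 5.05 and 5.48 FPKM with pGreen-628, against 2.08, 1.87 and 2.74 FPKM with the vector (0.90, adjusted p = 0.00795). Fibronectin (FN1) was at 2076, 2285 and 2385 against 1792, 1819.8 and 1678 FPKM, one of the most abundant transcripts of the line. TGFBI, THBS1 and the integrin ITGA5 rose by 0.35, 0.38 and 0.46. The matrix-associated growth regulators CCN2 and CCN1 fell by 0.72 and 0.47. The transcription factors SNAI1, SNAI2 and ZEB1 and the filament protein VIM were not called, at 0.34, 0.23, -0.02 and -0.14. The 5 rises were 1 and 3 without pGreen-628 libraries 1 and 2 and 0, 1 and 1 without vector libraries 1, 2 and 3, and the 2 falls were 1 without pGreen-628 library 1 or without any 1 vector library. COL5A2, a chain of fibrillar collagen, was at 12.2, 11.8 and 13.8 FPKM with pGreen-628, against 4.56, 5.03 and 4.87 FPKM with the vector (1.22, adjusted p = 0.000690). LAMA3, a laminin chain of basement membranes, fell, at 5.70, 5.24 and 6.86 against 12.04, 12.6 and 11.9 FPKM (-0.93), and so did the integrin ITGA10 (-0.85).

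Inhibitors of growth factors and of the cell cycle were among the largest rises, while the cell cycle genes themselves were mostly not called. CDKN1C, an inhibitor of cyclin-dependent kinases, was at 20.9, 25.2 and 19.3 FPKM in the pGreen-628 libraries, against 4.95, 5.71 and 5.59 FPKM in the vector libraries. The lowest pGreen-628 library had over 3 times the highest vector library (log2 fold change 1.82, SE 0.106, adjusted p = 0.000443). Other members of its class went different ways. CDKN2C rose (0.38), CDKN2B fell, at 8.04, 7.60 and 8.85 FPKM with pGreen-628 and 13.3, 13.4 and 13.4 with the vector (-0.65), and CDKN1A had a log2 fold change of 0.51 with groups that did not overlap and an adjusted p of 0.0560. Of 18 cyclins, kinases and E2F genes of the G1/S step 0 were called by limma or voom. In limma 4 had an unadjusted p under 0.05, which held for 22.2% of all tested genes. Of 32 genes of DNA replication 1 rose, and of 33 genes of mitosis 2 rose, against 2.32% of all tested genes. Those 2 were the kinesins KIF4A and KIF20A (0.27 and 0.36), both lost without pGreen-628 library 1 or without any 1 vector library.

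IGFBP5 and IGFBP3, which bind insulin-like growth factors outside the cell, rose. IGFBP5 was at 18.7, 24.7 and 26.1 FPKM with pGreen-628, against 7.77, 7.34 and 6.94 FPKM with the vector (1.52, adjusted p = 0.00156), and IGFBP3 at 199, 272 and 219 against 105, 101 and 109 FPKM (1.11). IGFBP1, the liver member of the family, fell, at 26.8, 29.9 and 25.6 against 53.3, 51.4 and 45.6 FPKM (-0.85). All 3 were called in each of the 19 alternatives. The receptors IGF1R, INSR and IGF2R were not called, at 0.07, 0.11 and 0.13. H19, an imprinted long non-coding RNA that is abundant in fetal liver, was at 185, 109.7 and 97.6 FPKM with pGreen-628, against 31.4, 27.3 and 54.3 FPKM with the vector. Its groups did not overlap, but each held 1 library well above its others, and the standard error was large (log2 fold change 1.77, SE 0.301, adjusted p = 0.0192). H19 (chr11:1995176-2001470) and CDKN1C (chr11:2883213-2885775) lie in the same stretch of chromosome 11, in the coordinates of the deposited table.

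Other regulators of growth moved too. PTHLH, the parathyroid hormone-related protein, was at 3.45, 4.22 and 3.77 FPKM with pGreen-628, against 1.34, 1.18 and 1.11 FPKM with the vector (1.12), and EPHB4, a receptor for ephrin B ligands, at 27.7, 31.03 and 25.9 against 14.9, 14.6 and 14.5 FPKM (0.90). FSTL3, which binds activin, rose by 0.82, SMAD7, an inhibitor of TGF-beta signalling, by 0.38 and its receptor TGFBR2 by 0.34, the 3 called members of 27 tested in TGF-beta and BMP signalling, of which 1 was called without pGreen-628 library 1 or without any 1 vector library. AREG, a ligand of the EGF receptor, fell, at 7.10, 8.22 and 6.54 against 14.04, 13.4 and 14.4 FPKM (-0.86), and NRG1, which binds ERBB3, fell by 0.38, while the receptor ERBB3 rose by 0.33. The replication-dependent histone H4C8 had the largest rise of the line on the log2(FPKM + 1) scale, at 82.3, 112 and 131 FPKM with pGreen-628 and 27.3, 23.6 and 31.2 with the vector (1.93). By the ratio of mean FPKM, SLC2A3 (5.59), LIPE (4.84) and CDKN1C (4.02) rose more than H4C8 (3.96). Of 12 histone genes of this kind 3 rose, with H1-2 (0.52) and H2BC5 (0.44), and 1 fell, H2BC21 (-0.47), with 1 rise left without pGreen-628 library 1 or without any 1 vector library. Histone messengers mostly lack a poly-A tail and have near copies, so their levels in poly-A libraries are uncertain.

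Of 35 tested targets of the hypoxia response 15 rose, 0 fell and 20 were not called. Of all tested genes 2.32% rose and 3.05% fell. Hypoxia-inducible factors are transcription factors that are stabilised when oxygen is low and that switch on genes of glucose uptake, pH control and lipid storage. The median log2 fold change of the 35 was 0.36, with 32 above 0 and 3 below. Called or not, 24 lay wholly higher and 2 wholly lower, against 12.2% and 17.7% of all tested genes. CA9, a carbonic anhydrase of the cell surface, was at 33.6, 43.5 and 31.5 FPKM in the pGreen-628 libraries, against 14.9, 15.9 and 14.7 FPKM in the vector libraries. NDRG1, a cytoplasmic protein induced by low oxygen and other stresses, was at 297, 389 and 303 against 114, 132 and 116 FPKM. SLC2A3, a glucose transporter that was barely detected with the vector, was at 3.44, 5.04 and 3.86 against 0.688, 0.532 and 0.988 FPKM. In all 3, pGreen-628 library 2 was the highest, and the vector libraries lay close together in CA9 and NDRG1 but not in SLC2A3 (log2 fold changes 1.19, 1.43 and 1.56, adjusted p = 0.00306, 0.00156 and 0.00249).

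NDUFA4L2, a mitochondrial protein, was at 78.9, 102 and 77.1 FPKM with pGreen-628, against 45.05, 41.5 and 40.5 FPKM with the vector (0.99), and HILPDA, a lipid droplet protein, at 26.2, 30.2 and 24.7 against 14.9, 16.2 and 16.1 FPKM (0.74). ANGPTL4, an inhibitor of lipoprotein lipase, was at 31.8, 43.2 and 30.3 against 13.97, 17.4 and 15.8 FPKM (1.10). EFNA1, an ephrin, rose by 0.78, PLIN2, which coats lipid droplets, by 0.41, ERO1A, an oxidase of protein folding, by 0.40, P4HA2, a collagen prolyl hydroxylase, by 0.38, and PFKFB3, a regulator of glycolysis, by 0.36. BNIP3, MXI1 and CA12 rose by 0.36, 0.32 and 0.30. SLC2A1 (0.56) and VEGFA (0.32) had groups that did not overlap and were not called, at adjusted p = 0.0507 and 0.0527. STC2 and BHLHE40 lay on the lower side, at -0.28 and -0.27, and were not called.

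The regulators themselves were less uniform. HIF1A was at 77.9, 62.2 and 105 FPKM with pGreen-628, against 117, 109 and 120 FPKM with the vector, and was not called (-0.52, adjusted p = 0.125). EPAS1, which encodes the second factor of this class, rose (39.7, 42.1 and 41.5 against 34.5, 35.03 and 33.2 FPKM, 0.26), and CITED2, which competes with these factors for a coactivator, rose by 0.64. The count of hypoxia targets called was 7 without pGreen-628 library 1 and 6, 8 and 7 without vector libraries 1, 2 and 3, and it was 25 after a correction for GC content and length.

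The promoter of CA9 is shown because it holds a match to the core of the hypoxia response element, ACGTG on either strand, in capitals with the strand read as CACGT. It is from RefSeq (GRCh38.p14, chr9:35673678-35673977, plus strand, 250 bases before the start to 50 after).
CA9: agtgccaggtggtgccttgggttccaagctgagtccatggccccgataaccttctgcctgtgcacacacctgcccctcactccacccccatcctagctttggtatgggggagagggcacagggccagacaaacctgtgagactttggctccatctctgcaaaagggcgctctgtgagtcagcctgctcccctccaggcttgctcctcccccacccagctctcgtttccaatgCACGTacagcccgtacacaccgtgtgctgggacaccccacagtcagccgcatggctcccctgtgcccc
The core was in 16 of 29 promoters of tested hypoxia targets that RefSeq lists (55.2%), against 21.6% of all 27305 promoters, 27.3% of 9194 promoters of tested genes and 23.2% of 224 promoters of genes called higher. A match of 5 letters is frequent by its length alone, and it describes these windows only.

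The largest falls were in a plasminogen activator and in secreted protease inhibitors. PLAT, the tissue plasminogen activator, was at 6.49, 7.61 and 6.93 FPKM in the pGreen-628 libraries, against 32.3, 34.4 and 32.6 FPKM in the vector libraries. Values within each group were close and the groups lay over 4-fold apart (log2 fold change -2.09, SE 0.0729, adjusted p = 6.99e-05). PLAU, the urokinase activator, fell by 0.51 and SERPINB8, a serpin, by 0.67, while the receptor PLAUR (-0.03) was not called. These 3 of 10 tested genes of plasminogen activation fell and 0 rose, and 1 was called without pGreen-628 library 1 or without any 1 vector library. The cystatins CST1, CST4 and CST2, secreted inhibitors of cysteine proteases, had the largest falls of the line beside PLAT. CST1 was at 5.56, 6.94 and 5.10 FPKM with pGreen-628, against 28.3, 32.1 and 30.4 FPKM with the vector, and CST4 at 0.484, 0.139 and 0.291 against 4.45, 4.11 and 5.19 FPKM. CST2 was at 0.486, 0.418 and 0.585 against 4.71, 3.97 and 4.33 FPKM. Their closely similar coding sequences make the division of reads among them uncertain, and they lie together on chromosome 20 (CST4 at chr20:23685640-23689038, CST2 at chr20:23823769-23826729).

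Of 19 cystatins and cathepsins tested 5 fell, with the cysteine proteases CTSL (556, 541 and 517 FPKM with pGreen-628, 729, 702 and 716 with the vector, -0.41) and CTSO (-0.41), and 0 rose. The count was 3 without pGreen-628 library 1 or without any 1 vector library, and the 3 cystatins stayed called in every alternative. The other cystatins CSTB and CST3 were not called, at -0.17 and -0.16. MMP7, the matrix metalloprotease matrilysin, was at 402, 409 and 349.6 against 632, 619.6 and 635 FPKM (-0.70, adjusted p = 0.00365), and MMP14, which is bound to the membrane, rose by 0.46. SPINK1, a trypsin inhibitor, fell, at 6.44, 5.04 and 5.94 FPKM with pGreen-628 and 10.8, 8.87 and 13.4 with the vector (-0.81).

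Several chemokines and other targets of NF-kB fell. NF-kB is the transcription factor that switches on inflammatory cytokines, and the chemokines CXCL1, CXCL2, CXCL3, CXCL5 and CXCL8 attract neutrophils. Of 11 tested chemokines 7 fell and 0 rose, with a median log2 fold change of -0.66. CCL20, which attracts cells that carry the receptor CCR6, was at 10.1, 10.1 and 10.01 FPKM in the pGreen-628 libraries, against 26.7, 26.7 and 27.3 FPKM in the vector libraries. Both groups were almost free of spread (-1.33, adjusted p = 0.000147). CXCL5, the most abundant of the family here, was at 57.5, 50.5 and 53.8 against 85.5, 85.2 and 88.01 FPKM, and CXCL2 at 4.23, 3.17 and 3.42 against 8.98, 8.03 and 8.55 FPKM. CXCL8 was at 3.35, 2.94 and 2.76 against 5.92, 6.52 and 6.84 FPKM. The remaining 3 were CXCL1 (-1.03), CXCL17 (-0.66) and CXCL3 (-0.60), and CXCL16, CCL24, CCL26 and CCL28 were not called. The count was 4 without vector library 3.

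Of 23 tested inflammatory NF-kB targets 12 fell, 0 rose and 11 were not called, with a median of -0.42. Beside the chemokines, LIF, a cytokine of the interleukin 6 family, was at 4.79, 4.85 and 4.31 FPKM with pGreen-628, against 9.56, 10.8 and 9.30 FPKM with the vector (-0.95). LCN2, an iron-scavenging lipocalin, was at 25.3, 30.8 and 25.5 against 47.3, 46.7 and 49.8 FPKM (-0.80), and SOD2, the mitochondrial superoxide dismutase, at 9.65, 9.78 and 10.1 against 14.9, 15.2 and 15.5 FPKM (-0.58). CSF1, the macrophage growth factor, and the interleukins IL1A and IL1B fell by 0.65, 0.61 and 0.42. The feedback inhibitors NFKBIA (-0.22) and TNFAIP3 (-0.04) and the subunits NFKB1 (-0.19) and NFKB2 (-0.20) were not called. SOCS2, an inhibitor of cytokine receptors, fell, at 1.19, 0.828 and 0.983 FPKM with pGreen-628 and 3.61, 3.41 and 3.74 with the vector (-1.20).

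Several of these genes are neighbours on chromosome 4. In the order CXCL8, CXCL1, CXCL5, CXCL3, CXCL2 and AREG they span chr4:73740541-74455005 in the coordinates of the deposited table. All 6 fell, but they were picked among the falls, so their shared direction is no result about the region. MTHFD2L, between CXCL2 and AREG, also fell (-0.41), and other tested genes of the span are not given. ALB, at chr4:73397114-73421482 on the near side of that span, rose. The promoter of CXCL2 is shown because it holds a match to the kappaB consensus on both strands, in capitals. It is from RefSeq (GRCh38.p14, chr4:74099146-74099445, minus strand, printed 5′ to 3′ along the gene).
CXCL2: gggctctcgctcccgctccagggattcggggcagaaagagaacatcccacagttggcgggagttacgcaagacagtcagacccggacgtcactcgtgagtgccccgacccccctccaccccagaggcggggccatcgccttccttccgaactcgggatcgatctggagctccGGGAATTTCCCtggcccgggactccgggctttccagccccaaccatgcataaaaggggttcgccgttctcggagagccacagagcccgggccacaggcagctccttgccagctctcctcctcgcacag
The 2 matches overlap. The consensus was in 11 of 19 promoters of tested NF-kB targets (57.9%), against 10.8% of all promoters, 13.1% of those of tested genes and 14.3% of 273 promoters of genes called lower.

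All 23 tested targets of ATF4 had a log2 fold change under 0, and 12 of them fell. ATF4 is a transcription factor that cells make when the integrated stress response slows protein synthesis, and it drives amino acid synthesis. The median over the 23 was -0.36, 11 were not called and 0 rose. CHAC1, which breaks down glutathione, was at 1.79, 2.09 and 1.97 FPKM in the pGreen-628 libraries, against 5.58, 6.85 and 5.84 FPKM in the vector libraries (-1.26, adjusted p = 0.00110). GDF15, a cytokine released under stress, was at 23.96, 25.8 and 21.6 against 39.5, 51.2 and 43.05 FPKM (-0.87), and CTH, which makes cysteine, at 5.12, 5.42 and 6.76 against 10.6, 11.04 and 11.1 FPKM (-0.83). In each of the 3 every pGreen-628 library lay under every vector library. TRIB3, a pseudokinase, was at 71.7, 80.2 and 61.3 against 110.1, 118 and 116 FPKM (-0.69), and the serine synthesis enzymes PSAT1, PHGDH and PSPH fell by 0.52, 0.47 and 0.34. ATF3, SESN2, PCK2 and ADM2 fell by 0.58, 0.47, 0.45 and 0.41. ATF4 itself fell by 0.30, at 211, 213 and 198 FPKM with pGreen-628 and 255, 254 and 259 with the vector, and DDIT3 was not called (-0.34, adjusted p = 0.0520). The related factor ATF5 was at 25.8, 27.6 and 23.6 against 43.6, 45.7 and 45.7 FPKM (-0.79). The count of 12 was 5 without pGreen-628 library 1 and 4, 5 and 4 without vector libraries 1, 2 and 3.

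The promoter of CHAC1 is shown because it holds the composite element of ATF4 with C/EBP proteins, TGATGNAAN searched on both strands, in capitals on the opposite strand. It is from RefSeq (GRCh38.p14, chr15:40953221-40953520, plus strand).
CHAC1: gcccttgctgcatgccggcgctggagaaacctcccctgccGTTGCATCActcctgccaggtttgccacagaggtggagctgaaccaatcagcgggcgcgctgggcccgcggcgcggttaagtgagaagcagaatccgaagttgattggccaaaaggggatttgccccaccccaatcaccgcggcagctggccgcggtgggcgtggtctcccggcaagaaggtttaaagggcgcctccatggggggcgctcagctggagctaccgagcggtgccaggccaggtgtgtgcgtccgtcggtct
The element was in 2 of 19 promoters of tested ATF4 targets (10.5%), against 3.67% of all promoters, 1.66% of those of tested genes and 3.30% of 273 promoters of genes called lower.

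Of 20 cytosolic aminoacyl-tRNA synthetases, which load amino acids onto transfer RNAs, 3 fell and 0 rose, WARS1 (-0.44), SARS1 (-0.39) and GARS1 (-0.27), and all 3 calls were lost without pGreen-628 library 1 or without any 1 vector library, against 8 calls without pGreen-628 library 3. Of 22 heat shock proteins 3 fell and 0 rose, HSPB8 (-0.59), the constitutive chaperone HSPA8 (719, 709.7 and 660.0 FPKM with pGreen-628, 899, 849.6 and 868 with the vector, -0.33) and its partner DNAJA1 (-0.33), all lost without pGreen-628 library 1 and 1 called without any 1 vector library. The related small chaperone CRYAB fell by 0.81. Of 26 genes of the endoplasmic reticulum chaperones and the unfolded protein response 6 rose, 0 fell and 20 were not called, with a median of 0.13 and 6 members below 0. CALR, a lectin chaperone, was at 358, 383 and 332 FPKM with pGreen-628, against 285, 277 and 275 FPKM with the vector (0.35), and HSPA5, the main chaperone of the compartment, at 169, 166 and 172 against 141, 137 and 142 FPKM (0.27). HYOU1, PDIA4 and PDIA3 rose by 0.35, 0.34 and 0.32, and the liver transcription factor CREB3L3 by 0.62. XBP1, HERPUD1 and DNAJB9, which the same pathway induces, were not called, at -0.07, -0.06 and -0.30. The count of 6 was 10 without pGreen-628 library 3 and 1 without pGreen-628 library 1 or without any 1 vector library. CREB3L1, a transcription factor anchored in that membrane, was at 6.92, 7.94 and 5.84 FPKM with pGreen-628, against 3.15, 2.50 and 2.89 FPKM with the vector (1.03).

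Of 32 tested immediate early genes and feedback genes of MAPK signalling 11 fell, 0 rose and 21 were not called. The median log2 fold change was -0.21, with 25 members below 0 and 7 above. The phosphatase DUSP1 was at 6.21, 7.49 and 5.85 FPKM in the pGreen-628 libraries, against 13.3, 15.7 and 13.2 FPKM in the vector libraries, and DUSP4 at 38.7, 38.6 and 40.2 against 59.3, 60.6 and 58.1 FPKM. Both groups were well apart in both genes (-1.01 and -0.59, adjusted p = 0.00359 and 0.00248). The transcription factors FOS, KLF6 and EGR1 fell by 0.55, 0.40 and 0.36, DUSP5 and DUSP6 by 0.47 and 0.43, and the inhibitor SPRY2 and PHLDA1 by 0.42 and 0.41. JUN (-0.03), MYC (-0.22) and FOSL1 (-0.32) were not called. The count was 3 without pGreen-628 library 1 and 3, 3 and 4 without vector libraries 1, 2 and 3. Of 23 tested targets of p53 5 fell and 0 rose, with GDF15, PMAIP1 and SESN2 given above, the kinase PLK2 (17.6, 17.2 and 17.5 FPKM with pGreen-628, 26.5, 27.4 and 25.3 with the vector, -0.57) and GADD45A (-0.47). CDKN1A, the best known target of p53, lay on the higher side as given above. The count was 3 without vector library 3.

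Secreted liver proteins moved in both directions. ALB, serum albumin, was at 37.5, 39.2 and 42.7 FPKM in the pGreen-628 libraries, against 14.4, 13.3 and 13.95 FPKM in the vector libraries. The groups lay far apart with little spread (1.45, adjusted p = 0.000185). The fibrinogen chains FGB and FGG fell, FGB at 2.07, 2.10 and 2.20 against 4.07, 3.54 and 3.97 FPKM (-0.64) and FGG at 1.72, 1.33 and 1.92 against 3.56, 2.75 and 3.67 FPKM (-0.70). Of 22 tested secreted proteins of hepatocytes 4 rose, with coagulation factor F5 (0.56), angiotensinogen AGT (0.35) and APOH (0.29), and these 2 fell. The fetal marker AFP was not called (0.12). The 4 rises were 1 without pGreen-628 library 1 or without any 1 vector library. The 2 falls were 1 without pGreen-628 library 1 or vector library 1 and 0 without vector library 3. ALB stayed called in every alternative.

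Of 22 tested genes of conjugation and alcohol metabolism 5 rose and 1 fell, while 11 lay above 0 and 11 below, with a median log2 fold change of 0.03. UGT1A1, which conjugates bilirubin, was at 32.01, 29.5 and 30.2 FPKM with pGreen-628, against 14.97, 14.2 and 13.04 FPKM with the vector (1.07, adjusted p = 0.000690), and the alcohol dehydrogenase ADH1C at 103, 103 and 90.5 against 64.5, 57.1 and 68.3 FPKM (0.64). GSTA2, a glutathione transferase, ADH6 and UGT1A6 rose by 0.84, 0.50 and 0.42, and UGT2B7 fell by 0.49. UGT1A1 and UGT1A6 share their last exons, so their reads cannot be fully told apart. The 5 were 2 without pGreen-628 library 1 and 2, 3 and 3 without vector libraries 1, 2 and 3. TM4SF4, a membrane protein of liver and gut, was at 22.2, 20.96 and 18.8 FPKM with pGreen-628 and 8.32, 9.44 and 9.70 with the vector (1.09), and the secreted protein AZGP1 at 34.9, 35.9 and 29.9 and 19.4, 15.5 and 16.9 (0.92). Among 9 apolipoproteins and lipoprotein genes 3 rose and 0 fell, APOH, APOE (0.42) and the receptor LRP1 (28.05, 31.5 and 31.6 against 16.3, 19.6 and 15.5 FPKM, 0.80), and 1 without pGreen-628 library 1 or without any 1 vector library.

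Of 29 tested genes of cholesterol synthesis and uptake 8 fell, 0 rose and 21 were not called. The median log2 fold change was -0.28, with 22 members below 0 and 7 above. ACAT2, at the first step, was at 26.5, 28.4 and 24.8 FPKM in the pGreen-628 libraries, against 42.05, 42.04 and 41.7 FPKM in the vector libraries (-0.64, adjusted p = 0.00349). MSMO1, a sterol oxidase, was at 30.4, 27.03 and 29.8 against 44.9, 43.2 and 46.5 FPKM (-0.61), and MVK, mevalonate kinase, at 6.70, 7.34 and 5.72 against 9.44, 10.1 and 9.55 FPKM (-0.50). The groups did not overlap in any of them. IDI1 fell with them as given above, and HSD17B7, FDPS, SQLE and EBP fell by 0.45, 0.43, 0.40 and 0.35. The regulator SREBF2 was not called (0.05). The count was 13 without pGreen-628 library 3, and 2 without pGreen-628 library 1 or without any 1 vector library.

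Genes of fatty acids and lipid droplets moved both ways, 6 higher and 5 lower of 34 tested. LIPE, the hormone-sensitive lipase, was at 2.55, 2.66 and 2.45 FPKM with pGreen-628, against 0.513, 0.633 and 0.436 FPKM with the vector (1.22, adjusted p = 0.00110). CD36, a fatty acid receptor, was at 6.38, 5.42 and 8.43 against 3.26, 2.93 and 2.80 FPKM (0.94), and DGAT2, which makes triglyceride, and the droplet protein CIDEC rose by 0.47 and 0.50, along with HILPDA and PLIN2. ACSL1, which activates fatty acids, fell, at 17.4, 16.8 and 18.5 against 26.8, 27.1 and 26.96 FPKM (-0.59). G0S2, an inhibitor of triglyceride lipase, its activator ABHD5, LPIN1 and the desaturase FADS1 fell by 0.52, 0.50, 0.43 and 0.31. The counts were 2 and 1 without pGreen-628 library 1 or without any 1 vector library. In fatty acid oxidation and ketogenesis 4 of 27 rose and 0 fell, among them the kinase PDK4, which holds back glucose oxidation, at 7.75, 7.87 and 9.22 FPKM with pGreen-628 and 5.66, 5.49 and 5.54 with the vector (0.50), CREB3L3 and ANGPTL4, and the count was 8 without pGreen-628 library 3. The enzymes of the beta-oxidation spiral on the list, such as ACADM, HADHA and ECHS1, were not called (-0.07, 0.08 and 0.05).

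**Figure D3:**
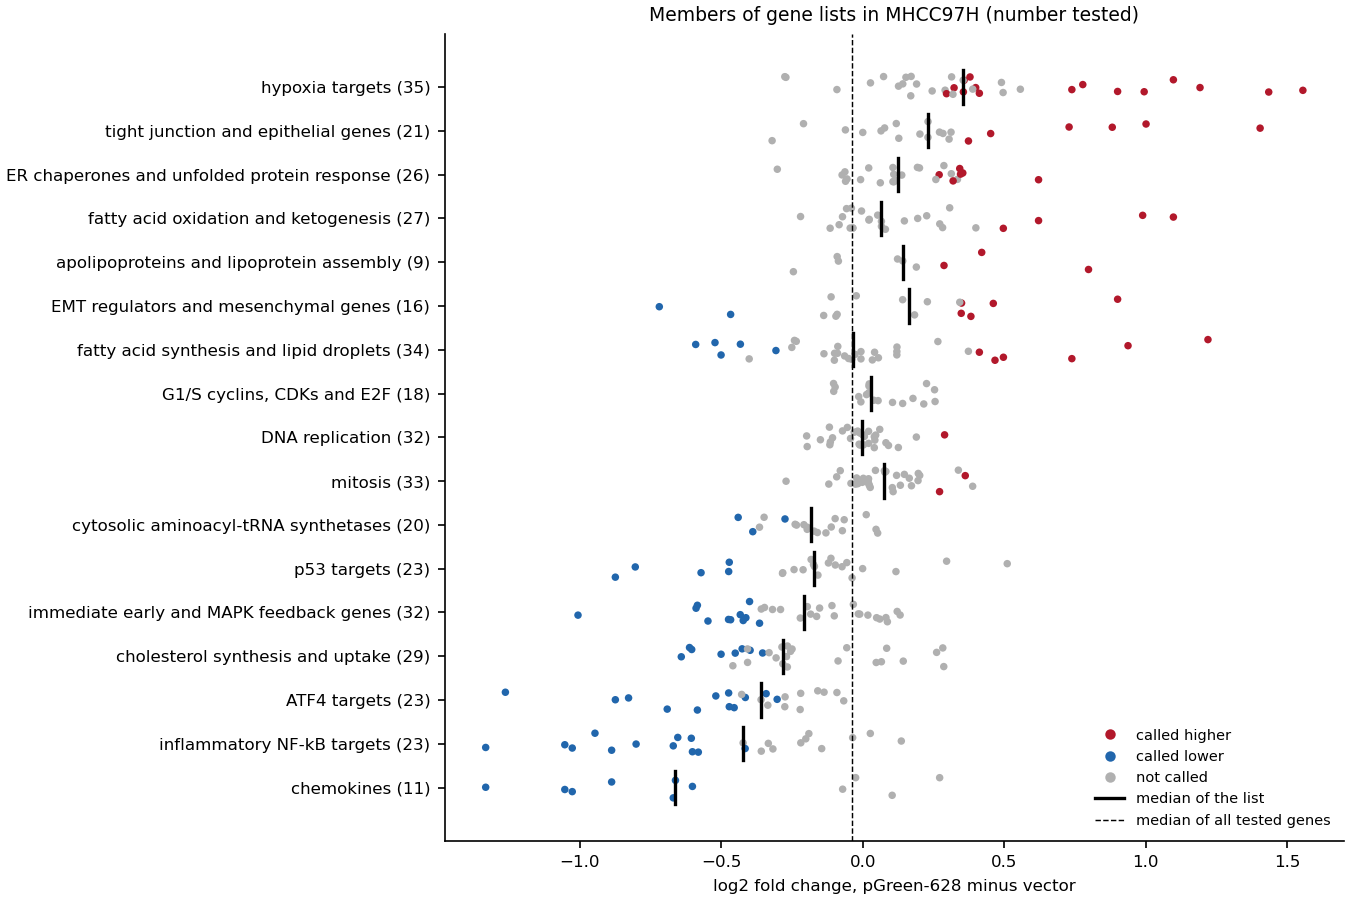
Log2 fold change of pGreen-628 over vector for each tested member of 17 gene lists, 1 point per gene, with called genes in colour, a bar at the median of each list and a dashed line at the median of all tested genes (-0.04). The medians run between 0.36 for hypoxia targets and -0.66 for chemokines.

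The counts of several lists grew after the correction for GC content and length, and none of the medians given above for them turned its sign. The correction gave 20 falls in cholesterol synthesis and uptake, 13 rises in chaperones of the endoplasmic reticulum, 11 rises each in tight junction genes and in fatty acid oxidation and ketogenesis, and 10 falls in aminoacyl-tRNA synthetases. It also gave 11 rises in mitosis, where 2 genes were called before it.

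Housekeeping families held few calls or none. Of 82 nuclear genes of oxidative phosphorylation and 13 genes of the mitochondrial genome 0 were called by limma or voom, with 9 and 5 at an unadjusted p under 0.05, which held for 22.2% of all tested genes. Of 83 ribosomal protein genes 2 fell, against 3.05% of all tested genes. They were RPS27L (-0.47) and RPL17 (-0.43), and neither was called without pGreen-628 library 1 or vector library 1 or 3. The solute carriers, a large family of membrane transporters, had 8.16% of their members called, against 5.37% of all tested genes. Of 196 tested 8 rose and 8 fell, among the rises the creatine transporter SLC6A8 (0.66) and among the falls the phosphate transporter SLC20A1 (-0.53). Those counts were 1 each without pGreen-628 library 1 or vector library 1 or 3, 3 and 2 without vector library 2, and 15 each without pGreen-628 library 3. Of 297 tested genes named ZNF 2 rose and 3 fell, against 2.32% and 3.05% of all tested genes, and 15 fell without pGreen-628 library 3. Of 19 genes of the microRNA machinery and 8 receptors of endoplasmic reticulum autophagy 0 were called by limma or voom, with 3 and 1 at an unadjusted p under 0.05.

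Among very abundant transcripts, AKR1B1, an aldose reductase, was at 2263, 2398 and 2065 FPKM in the pGreen-628 libraries, against 2824, 3007 and 3072 FPKM in the vector libraries (-0.41, adjusted p = 0.0333). SPP1, the secreted phosphoprotein osteopontin, was at 535, 501 and 596 against 851, 802 and 886 FPKM (-0.64). SDCBP, the scaffold syntenin, was at 229, 199.9 and 254 against 395, 387 and 408 FPKM (-0.81). All 3 were lower in each pGreen-628 library. SPP1 is also a marker of cholangiocytes, whose 8 markers summed to 773 to 795 FPKM with pGreen-628 and 1057 to 1113 with the vector. Most of that sum was SPP1 itself. KRT19 was at 173 to 242 against 199 to 226 FPKM, and KRT7 had means of 5.62 and 5.70 FPKM. MUC1, also one of the 8, rose as given above. The part of other cells in the fall of SPP1 was not tested. AGR2, a disulfide isomerase of secretory cells, rose, at 350.1, 366 and 343 FPKM with pGreen-628 and 221, 207 and 223 with the vector (0.70), and so did the carboxylesterase CES1 (504, 561 and 489 and 394, 401 and 404, 0.37).

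Further large falls lie outside the lists given above. CD79A, known as a chain of the B cell receptor, was at 6.10, 7.05 and 5.31 FPKM with pGreen-628, against 18.3, 20.8 and 19.1 FPKM with the vector (-1.52), while the B cell marker MS4A1 stayed at 0. ANXA3, a phospholipid-binding annexin, was at 3.08, 3.19 and 3.35 against 8.75, 7.80 and 9.07 FPKM (-1.18), and FABP3, a fatty acid-binding protein, at 1.71, 1.61 and 1.74 against 4.48, 4.82 and 4.44 FPKM (-1.06). Of 21 tested annexins and S100 proteins 2 fell, ANXA3 among them, and 1 rose. PLA2G4C, a phospholipase, TMC5, the extracellular dismutase SOD3 and the receptor subunit RAMP1 fell by 0.92, 0.89, 0.86 and 0.81. Of the rises, PTGS1, the cyclooxygenase COX-1, was at 4.69, 5.92 and 5.32 FPKM with pGreen-628 and 1.85, 2.03 and 1.82 with the vector (1.12), and PPP1R3C, which brings a phosphatase to glycogen, at 5.42, 6.28 and 5.90 and 2.63, 2.36 and 2.44 (0.98). Of the endothelial markers, PECAM1 was called higher (7.63, 7.11 and 7.32 FPKM with pGreen-628, 4.60, 4.24 and 4.16 with the vector), while VWF stayed under 0.1 FPKM.

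Of 1030 tested long non-coding RNAs 43 fell and 8 rose, against 3.05% and 2.32% of all tested genes. Both directions together made up 4.95%, near the 5.37% of all tested genes, but most of the calls were falls. The median log2 fold change of the class was -0.10, against -0.04 over all tested genes. LINC00520 was at 2.80, 2.89 and 2.65 FPKM with pGreen-628, against 8.26, 7.81 and 6.47 FPKM with the vector (-1.17). The small nucleolar RNA SNORA73B and the microRNA gene MIR6730 also fell, but such short RNAs without a poly-A tail are measured poorly by these libraries. Over all types, the share called grew with the level, at 4.26% of genes at 1 to 5 FPKM, 5.29% at 5 to 20, 6.85% at 20 to 100 and 6.97% over 100. Across 12630 genes the fold change had a Spearman rho of 0.172 with the GC content of the transcript and 0.202 with its exon length, across genes that share these libraries. The median GC content was 51.6% among rises and 46.3% among falls, and the median exon length 3585 and 1969 bases. By chromosome, chromosome 18 had the largest share of tested genes called (10.6% of 188) and chromosome 21 the smallest among the autosomes (2.38% of 126).

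**Figure D4:**
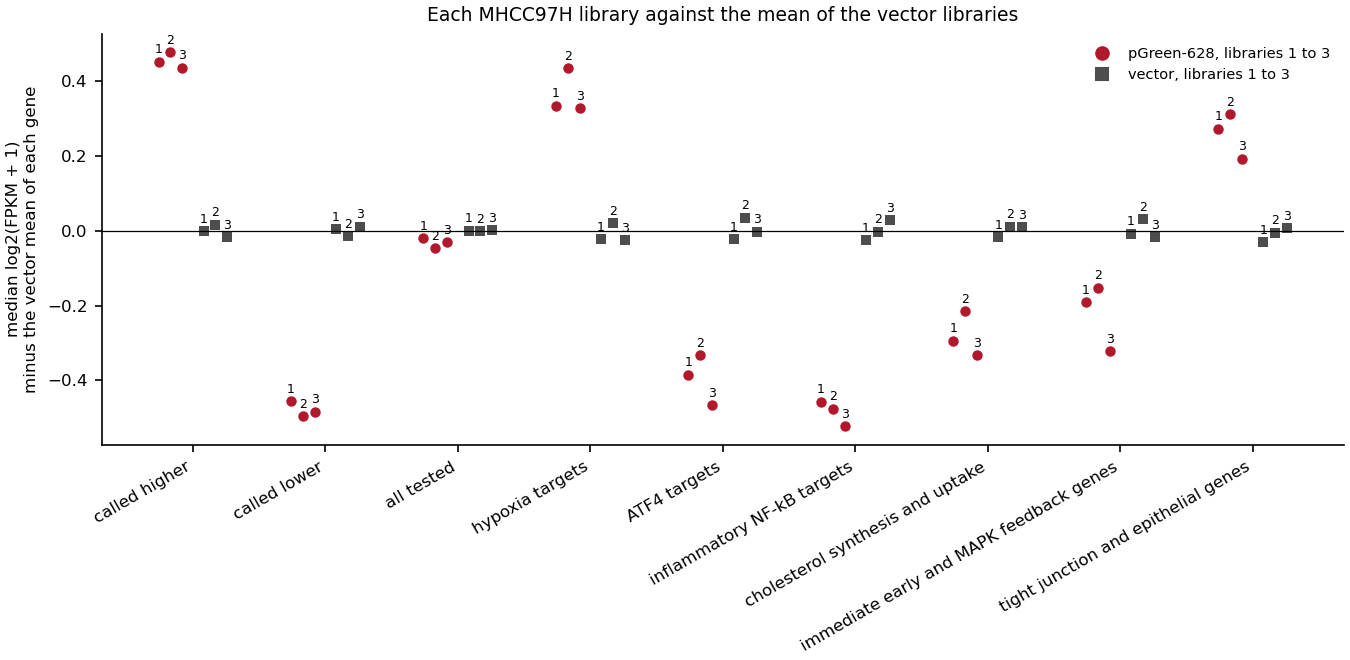
Median over the genes of a set of log2(FPKM + 1) minus the vector mean of each gene (vertical axis), for each of the 6 libraries, numbered, with pGreen-628 as circles left of the vector as squares. In hypoxia targets the pGreen-628 libraries lie at 0.33, 0.44 and 0.33, and in ATF4 targets at -0.38, -0.33 and -0.47. The vector libraries, which make up the mean used, lie close to 0 in each set.

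The library medians give the position of each library in some of the lists. For hypoxia targets the median against the vector mean was 0.33, 0.44 and 0.33 in pGreen-628 libraries 1 to 3, and for tight junction and epithelial genes 0.27, 0.31 and 0.19. For NF-kB targets it was -0.46, -0.48 and -0.52, for cholesterol genes -0.29, -0.21 and -0.33, and for immediate early genes -0.19, -0.15 and -0.32. Within each of these lists all pGreen-628 libraries lay on the same side. The lists were chosen with the results known and hold many called genes, whose groups do not overlap. That side was therefore largely fixed by the choice and is no separate support. Libraries 2 and 3, which lay furthest apart over all genes, were the extremes of several lists.

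The effect in MHCC97H was then set against that of the mimic in Huh7, over the same 12670 genes and all 12 libraries. The difference between both effects, MHCC97H minus Huh7, passed at an adjusted p under 0.05 in limma for 1665 genes, 13.1% of those tested, 957 above 0 (7.55%) and 708 below (5.59%). In Huh7 alone 1087 of these genes were called (8.58%). Each of the 10 strongest rises and 10 strongest falls among protein-coding genes of MHCC97H passed. CDH1 had a log2 fold change of 1.31 in MHCC97H and -0.06 in Huh7, where it was at 20.6 ± 1.97 FPKM with the mimic and 21.5 ± 0.233 FPKM with the control mimic (SD, n = 3 each). CCL20 had -1.33 in MHCC97H and 0.06 in Huh7, where it was at 747 ± 63.1 and 715 ± 4.60 FPKM. ALB had 1.45 and 0.13, at 7268 ± 544 and 6616 ± 246 FPKM in Huh7, far above its level in MHCC97H. NDRG1 had 1.43 and -0.19. The cystatins CST1, CST2 and CST4 and CEACAM5 were listed at 0 in all Huh7 libraries, and CDKN1C, SLC2A3, IGFBP5, LIPE, PLAT, CD79A, CHAC1 and SOCS2 stayed under 1 FPKM there, so their difference rests on a gene that Huh7 hardly expressed.

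Over 12670 genes the count for this difference was 858 without pGreen-628 library 1, 4678 without library 3, and 704 and 659 without vector libraries 1 and 3. The lines also differ in how miR-628-3p was delivered, and line and delivery cannot be told apart.

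**Figure D5:**
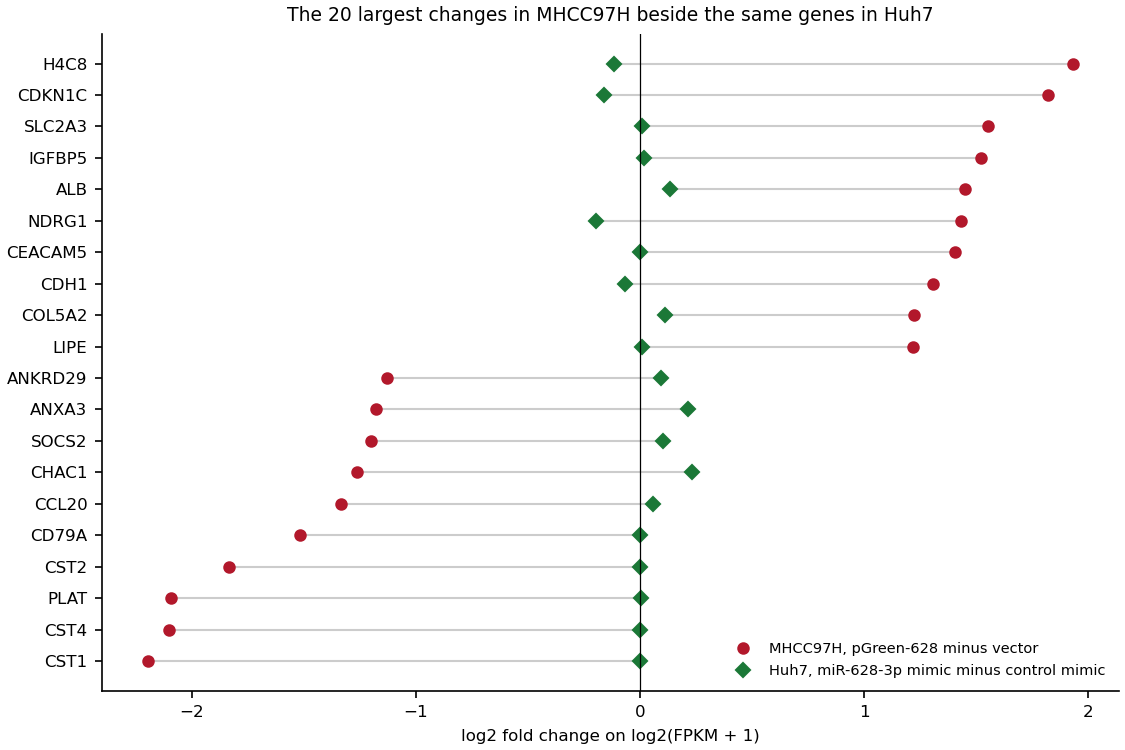
Log2 fold change of the 10 largest rises and 10 largest falls among called protein-coding genes in MHCC97H (circles, pGreen-628 minus vector) beside the same genes in Huh7 (diamonds, miR-628-3p mimic minus control mimic), joined by a line. In Huh7 all 20 genes lie between -0.19 and 0.23.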

How the data were processed

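The authors deposited 1 table of FPKM for 60664 genes by Ensembl identifier. Per the labels' protocols, Trizol extracts were selected for poly-A RNA, and libraries kept the strand through dUTP and were read from both ends. HISAT2, HISAT and HTSeq with GRCh38 and hg38 are named in the submitters' processing notes. Tool versions, the annotation release and whether strand was used in counting are not given in the sources used here. FPKM times exon length gave whole reads (100% of values within 0.01 reads), from which the depth and the voom alternative come.

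Genes with a mean of at least 1 FPKM over the 6 MHCC97H libraries entered a linear model of log2(FPKM + 1) on group (limma 3.58.1, R 4.3.3, eBayes with trend) and Benjamini-Hochberg adjustment over 12670 genes. A fold change is pGreen-628 minus vector on that scale, which understates the change of low genes. Genes are written as rose, fell or called at an adjusted p under 0.05. The difference between lines is an interaction term over 12 libraries. Simulated counts with 12670 genes gave 100% of planted 2-fold and 92% of 1.5-fold changes and 14 false calls. Changes were planted only in genes with a mean over 100 reads in the vector libraries. All simulated libraries had 1 spread, taken from the vector libraries. The pGreen-628 libraries lay further apart, and libraries of both groups differed with GC content, so these rates do not describe the measured data. Seed matches were searched in the longest 3′ untranslated region of each gene, and promoters in RefSeq windows, with Python 3.11.15, pandas 2.3.3 and numpy 2.4.6. Figures used matplotlib 3.10.9.

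The members and the 64 gene lists were chosen with earlier results of these data known, so no count over a list is independent support. Genes are named by a rule: the 30 largest rises and falls among called protein-coding genes with groups that do not overlap, MIR628 and CCPG1, the 6 called members of lowest p (or fewer) of any list with 2 or more, the 8 largest rises and falls in FPKM, 5 non-coding genes each way, and 10 genes with a seed site that fell most. List members and markers outside this rule were named after their values were seen. Some genes that the rule names are not reported here. Alternatives changed the pseudocount, filter, scaling, variance model, gene types, fit and test, corrected for GC content and length, added a replicate block, and left out each library. Whether replicate numbers pair the libraries could not be settled.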

Additional observations from a re-analysis of the deposited data

Results flagged for a closer look

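The 10 strongest rises and 10 strongest falls of MHCC97H are listed here because the test of the difference between the lines passed for each. They were chosen for their size in MHCC97H, which is 1 side of that difference, and CST1, CST2, CST4, CEACAM5, CDKN1C, SLC2A3, IGFBP5, LIPE, PLAT, CD79A, CHAC1 and SOCS2 were at 0 or under 1 FPKM in Huh7, so for these 12 the difference rests mostly on the MHCC97H change alone. The effect of pGreen-628 over vector in MHCC97H exceeded that of the miR-628-3p mimic over control mimic in Huh7, on the log2 scale, by 2.04 in H4C8, 1.98 in CDKN1C, 1.63 in NDRG1, 1.55 in SLC2A3 and 1.5 in IGFBP5. It exceeded it by 1.40 in CEACAM5, 1.37 in CDH1, 1.32 in ALB, 1.21 in LIPE and 1.11 in COL5A2. The difference was -2.19 in CST1, -2.10 in both CST4 and PLAT, -1.83 in CST2, -1.52 in CD79A and -1.5 in CHAC1. It was -1.39 in both CCL20 and ANXA3, -1.30 in SOCS2 and -1.22 in ANKRD29. The largest adjusted p among the 20 genes in limma was 0.000331, in ANKRD29, and the largest under any alternative was 0.0242, in CD79A. Line and delivery cannot be told apart.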

How the results depend on the processing

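The count of 680 called genes, 294 higher and 386 lower, was within 1.5 times of the same under pseudocount 0.1, a filter at 5 FPKM, median rescaling, quantile normalization, both other variance models, protein-coding genes only and voom (634 to 803 apart from 563 with the stricter filter). It moved to 326 without the filter (143 higher, 183 lower), 1672 in the joint fit over 12 libraries (697, 975) and 1981 after the GC and length correction (1053, 928). Leaving out 1 library at a time gave 143 to 1607 genes, 62 to 633 of them higher and 78 to 974 lower. No called gene changed sign. Leaving out a library could not turn one, because the groups of every called gene did not overlap. Of 196 called genes named by the rule, 82 stayed called in all alternatives that tested them. Without pGreen-628 library 1 102 of the 196 lost the call, without library 2 21, and without vector libraries 1, 2 and 3 105, 92 and 108. The difference between lines, 1665 genes, was 1020 without the filter and 659 to 4678 with 1 library left out. Genes with the 8-base site fell in 2.60% of cases, against 1.59% for all sites and 3.19% for genes without a site. The causes were not tested.

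Replicate numbers gave no clear pairing of the libraries. Deviations from the group means correlated at -0.09, 0.31 and 0.13 for libraries of the same number, and not every library correlated best with its own number. With 3 libraries per group, which also differ with GC content, these values cannot settle whether the libraries were paired. With a replicate block 495 genes were called (201 higher, 294 lower), and 1651 with the block and the GC and length correction (872, 779). A depth of 16554131 to 19234797 reads limits what can be said of genes under 1 FPKM.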
